A study of Mus musculus with 13 samples.

Results

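The mRNAs of 10 genes that build the acentriolar spindle poles of the mouse oocyte were followed across 13 RNA sequencing libraries, each from a pool of 25 oocytes. The genes were Pcnt, Cep192, Cdk5rap2, Nedd1, Tubg1, Tubg2, Tpx2, Tacc3, Ckap5 and Haus6, chosen by name from the 54232 genes of the count table, with earlier results of these data known. All 10 were found, and all 10 were among the 20143 genes with enough counts to be tested. The libraries fell into 4 groups. Null females were homozygous (-/-) for a deletion of the promoter of Sirena1, a long noncoding RNA of the mouse oocyte, made with Cas9 and a pair of guides in C57BL/6 zygotes and bred on with C57BL/6NCrl mice. WT females carried no deletion. The groups were MII Null (metaphase II eggs, n = 4), MII WT (n = 3), GV Null (fully grown oocytes still arrested in prophase with a germinal vesicle, n = 3) and GV WT (n = 3). All donors were superovulated, and the labels give the strain of every library as C57BL6/J, while the protocol names both that strain and C57BL/6NCrl as sources. GV oocytes were collected in 0.2 mM IBMX, a phosphodiesterase inhibitor that holds the prophase arrest, and eggs 12 to 14 h after hCG. Neither the age of the females nor the number of founder lines is given by the labels.

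Mouse oocytes lose their centrioles early in oogenesis, so the meiotic spindle is built by many acentriolar microtubule organising centres made of pericentriolar material. These centres gather around the chromosomes after the nuclear envelope breaks down and are sorted into the 2 poles of the spindle. Microtubules are nucleated there by γ-tubulin, along existing microtubules by the augmin complex, and near the chromosomes under the control of the small GTPase Ran, whose gradient frees the nucleation factor TPX2. A fully grown oocyte has largely stopped transcribing, and its stored mRNAs carry it through maturation.

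Each library held 30867614 to 41285507 counts, and the 10 genes together took 0.166 to 0.183% of them in eggs and 0.226 to 0.248% in GV oocytes. Levels are given as CPM, the share of a library's counts scaled to a fixed total, after TMM scaling by the bulk of the genes. Sirena1 checked the genotype labels, at 35.9 to 45.0 CPM in MII Null, 4271 to 4693 CPM in MII WT, 23.3 to 26.4 CPM in GV Null and 2912 to 3092 CPM in GV WT. The oocyte label was also met by the data, since 12 oocyte markers such as Zp3 and Gdf9 summed to 10468 to 14559.8 CPM in every library. Markers of the surrounding cumulus and granulosa cells were uneven. The 20 listed markers summed to 101 to 129.8 CPM in MII Null, 108 to 111 CPM in MII WT, 98.8 to 603 CPM in GV Null, highest in replicate 2 and next in replicate 3 (249.6 CPM), and 98.9 to 130.1 CPM in GV WT. No marker was at 0 counts in GV Null replicates 2 and 3, against 3 in replicate 1, 2 in each GV WT library and 3 to 9 in the eggs. Cyp11a1, a defining steroidogenic gene of these cells, was at 0.663 to 89.3 CPM in GV Null and at most 5.42 CPM in GV WT, and Inha, Amh and Foxl2 were at 0 in every MII WT library. Other listed markers did not follow this. Cyp19a1 was at 24.4 to 28.5 CPM in GV Null and 33.6 to 38.8 CPM in MII WT. Nr5a2 was at 52.3 to 79.1 CPM in GV Null and 59.4 to 62.2 CPM in MII WT. Cyp19a1 and Nr5a2 made up most of the marker sum in MII WT. Whether these cells contributed to the results below was not tested beyond leaving out GV Null replicates 2 and 3.

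Positions are those of the GRCm38.p6 assembly of RefSeq. The scaffold genes are Cep192 (ENSMUSG00000024542), Pcnt (ENSMUSG00000001151) at chr10:76351254-76442912 and Cdk5rap2 (ENSMUSG00000039298) at chr4:70216855-70410435. Among the γ-tubulin genes, Tubg1 (ENSMUSG00000035198) at chr11:101119904-101126423 and Tubg2 (ENSMUSG00000045007) at chr11:101155874-101161787 are neighbours with a gap of 29450 bp, and Nedd1 (ENSMUSG00000019988) is at chr10:92684745-92722418. Haus6 (ENSMUSG00000038047) is at chr4:86578855-86612075. Tpx2 (ENSMUSG00000027469) at chr2:152847964-152895321 and Ckap5 (ENSMUSG00000040549) at chr2:91526747-91620679 share a chromosome, and Tacc3 (ENSMUSG00000037313) is at chr5:33658128-33672203. The library kit does not keep the strand, so reads of genes that overlap a listed gene cannot be told from its own. The gene F2 overlaps Ckap5 over 8283 bp and was at 3.51 to 8.12 CPM, the pseudogene Ywhaq-ps3 inside Cdk5rap2 was at 6.83 to 11.5 CPM, and every other overlapping gene was at or under 0.184 CPM.

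The RefSeq promoter table held an entry for 6 of the 10 genes, and the 250 bases before the start site of 5 of them are shown. Tacc3 and Pcnt are the pair whose mRNA fell with maturation, Tubg2 and Haus6 rose in both genotypes on the TMM scale, and Ckap5 is the one whose window holds both motifs searched. Both strands were searched for the letters CCAAT, the CCAAT box bound by the factor NF-Y. They were also searched for TTTGAA, the core of the cell cycle homology region of many mitotic genes, and for its variant TTTAAA. Matches are in capitals (CCAAT on the other strand reads ATTGG, and TTTGAA reads TTCAAA), none overlaps another, and the letters run in the direction of the gene.
Tacc3, chr5:33657878-33658127, plus strand: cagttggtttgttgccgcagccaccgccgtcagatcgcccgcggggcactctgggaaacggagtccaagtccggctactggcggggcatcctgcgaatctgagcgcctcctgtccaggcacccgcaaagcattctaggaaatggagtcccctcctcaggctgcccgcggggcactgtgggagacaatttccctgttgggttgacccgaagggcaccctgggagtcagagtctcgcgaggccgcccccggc
Pcnt, chr10:76442913-76443162, minus strand: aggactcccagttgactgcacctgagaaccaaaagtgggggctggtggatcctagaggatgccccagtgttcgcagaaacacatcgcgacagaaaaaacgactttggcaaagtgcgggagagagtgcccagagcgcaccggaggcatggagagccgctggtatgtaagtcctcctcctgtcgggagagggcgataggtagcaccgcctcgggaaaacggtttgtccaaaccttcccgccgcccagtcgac
Tubg2, chr11:101155634-101155883, plus strand: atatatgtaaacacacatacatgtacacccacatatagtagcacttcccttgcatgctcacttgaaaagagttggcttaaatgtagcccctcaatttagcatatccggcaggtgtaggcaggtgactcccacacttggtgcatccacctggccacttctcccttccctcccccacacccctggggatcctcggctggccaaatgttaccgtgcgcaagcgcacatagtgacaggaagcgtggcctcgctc
Haus6, chr4:86612056-86612305, minus strand: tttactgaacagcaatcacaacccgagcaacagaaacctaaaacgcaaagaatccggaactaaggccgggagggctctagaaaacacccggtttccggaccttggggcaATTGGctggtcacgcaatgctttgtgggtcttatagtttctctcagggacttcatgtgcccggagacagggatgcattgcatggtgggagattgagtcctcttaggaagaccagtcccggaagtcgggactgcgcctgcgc
Ckap5, chr2:91526512-91526761, plus strand: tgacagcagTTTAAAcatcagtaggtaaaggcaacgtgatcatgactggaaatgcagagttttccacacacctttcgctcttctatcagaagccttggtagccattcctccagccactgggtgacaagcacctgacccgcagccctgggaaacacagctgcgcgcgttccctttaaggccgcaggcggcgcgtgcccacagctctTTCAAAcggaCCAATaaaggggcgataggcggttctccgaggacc
Haus6 held 1 CCAAT box, at -141 from its start, and Ckap5 held 1 at -35 with cell cycle homology matches at -241 and -45. The windows of Tacc3, Pcnt, Tubg2 and Cdk5rap2 held neither set of letters. Among 32851 promoters of the same length in the table, 33.8% held a CCAAT match, 25.2% a cell cycle homology match and 8.80% both, so the 2 of 6 genes with the first and 1 of 6 with the second are a description of these windows. The windows of Tubg2, Haus6 and Ckap5 end a few bases inside the annotated gene span, which starts from another transcript.

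The first comparison asked whether loss of Sirena1 changes the mRNA of the pole genes in eggs. None of the 10 genes passed the test between MII Null and MII WT eggs, and the libraries of both groups overlapped for every gene. Tacc3, which recruits the microtubule polymerase to the spindle, was at 347 ± 19.5 CPM in MII Null (n = 4) and 337 ± 8.37 CPM in MII WT (SD, n = 3). Pcnt, the pericentrin scaffold of the organising centres, was at 318 ± 29.0 CPM in MII Null and 317 ± 4.15 CPM in MII WT. In edgeR's quasi-likelihood test 0 of 10 genes passed a Benjamini-Hochberg adjusted p of 0.05, against 0.0546% of all genes tested, and 0 had an unadjusted p under 0.05, against 6.35% of all genes. The groups did not overlap for 6.07% of all genes and for 0 of the 10. The log2 fold changes of Null over WT ran from -0.08 to 0.05, with a median of -0.03 beside 0.01 over all genes, and 7 of 10 were below 0. The 95% intervals held all fold changes between 0.816, the lower limit for Tubg1, and 1.19, the upper limit for Tubg2.

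The same question in GV oocytes had the same kind of answer. None of the 10 genes passed between GV Null and GV WT. Tacc3 was at 707 ± 71.3 CPM in GV Null and 760.0 ± 13.0 CPM in GV WT, and Haus6, a subunit of augmin, at 80.7 ± 5.70 CPM in GV Null and 87.8 ± 3.49 CPM in GV WT (SD, n = 3 each). In edgeR's test 0 of 10 passed the adjusted p, against 0.0546% of all genes, 0 had an unadjusted p under 0.05, against 6.66% of all genes, and 0 of 10 had libraries that did not overlap, against 12.8% of all genes. The log2 fold changes ran from -0.13 for Cdk5rap2 to 0.14 for Tubg1, with a median of -0.06 beside 0.02 over all genes, and 8 of 10 were below 0. The 95% intervals lay between folds of 0.781 for Cdk5rap2 and 1.28 for Tubg1. GV Null replicate 2, the library highest in cumulus markers, was the lowest of its group for 8 of the 10 genes, all but Tubg1 and Tubg2. MII Null replicate 1, at 101 CPM of those markers, was the lowest of its group for the same 8 genes. The share of all genes for which each library is lowest was not counted. After leaving out GV Null replicates 2 and 3, with the spread of the remaining Null library assumed equal to that of the other groups, still none passed, and the log2 fold changes of 8 genes changed sign. A direct test of whether the genotype effect differed between eggs and GV oocytes called 0 of the 10 genes, against 0.00496% of all genes, with an adjusted p of 0.999 for each and differences in log2 fold change from -0.22 for Tubg1 to 0.15 for Tacc3. Over 450 values of these genes in the genotype comparisons under other settings, 0 had an adjusted p under 0.05, and the smallest was 0.152.

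**Figure D1:**
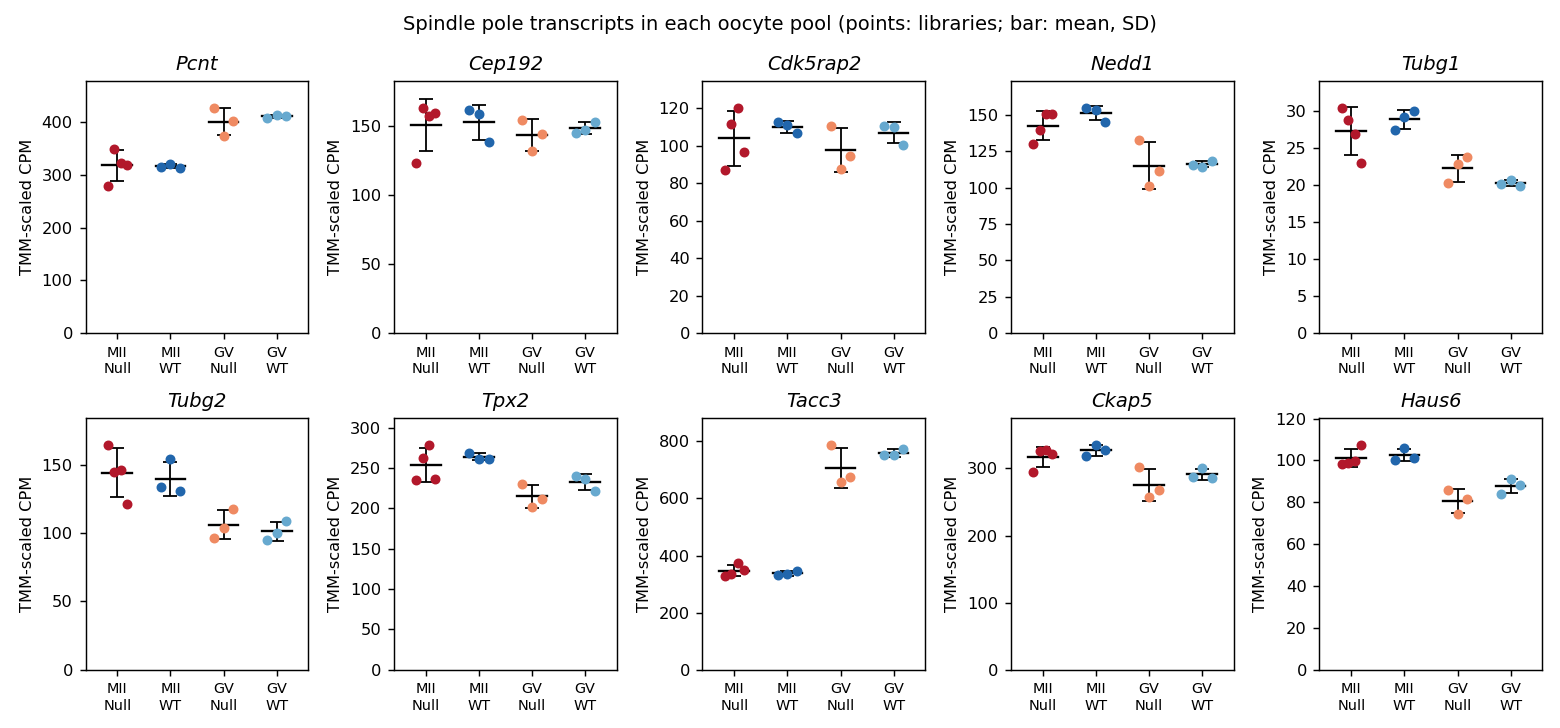
Level of each pole gene in every library. Each panel is 1 gene, the vertical axis is TMM-scaled CPM, points are libraries and bars are group means with their SD, in the order MII Null, MII WT, GV Null and GV WT (n = 4, 3, 3 and 3). Tacc3 libraries lie between 329 and 374 CPM in eggs and between 657 and 788 CPM in GV oocytes, while Null and WT overlap within each stage in every panel.

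The second pair of comparisons asked how these mRNAs differ between eggs and GV oocytes. Tacc3 fell to 0.491 of its GV level in Null and 0.444 in WT, and Pcnt to 0.793 in Null and 0.770 in WT, while both γ-tubulin genes, the γ-tubulin adaptor Nedd1 and the augmin gene Haus6 were moderately higher in eggs. Cep192 and Cdk5rap2 did not pass the test in either genotype. In edgeR's test 8 of 10 genes passed in Null (6 higher and 2 lower in eggs), against 49% of all genes tested (22.1% higher and 26.9% lower). In WT 6 of 10 passed (4 higher and 2 lower), against 42.7% of all genes (19.9% higher and 22.8% lower). The Null count was 5 without MII Null replicate 2 or 3, where 8856 and 8792 of all genes passed, beside 9867 in the main fit. With only the 2 Null groups in the fit it was also 5, where 8372 of all genes passed. With only the 2 WT groups the WT count was 8 (6 higher and 2 lower), where 9745 of all genes passed. In the main fit all 10 genes had the same sign of change in both genotypes, and 6 passed in both. There 2 (Tpx2 and Ckap5) passed in Null alone, and no difference between the genotypes passed for any of the 10. With only the 2 groups of each genotype fitted, Tpx2 and Ckap5 passed in WT and not in Null. CPM is a share of a library's mRNA, so a change is relative to the rest of the transcripts. Every pool held 25 oocytes, but for cells other than oocytes, fewer cells of a type and less RNA per cell cannot be told apart.

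The reference level matters for the small changes. Genes with a mean of at least 5 CPM had a median log2 change of 0.14 in both genotypes, beside -0.05 in Null and 0.01 in WT over all genes tested. A fit limited to the 10336 genes of the whole table at that level, scaled on them alone, shifted the maturation values by -0.15 in Null and -0.14 in WT. Relative to that scale 4 of the 10 genes passed in Null (Tacc3 and Pcnt lower, Tubg2 and Haus6 higher), against 56.5% of the genes in that fit. In WT 5 passed (Tacc3 and Pcnt lower, Tubg1, Tubg2 and Nedd1 higher), against 51.8%. The values on this second scale are given beside those of the first for each gene below.

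Among the scaffold genes, Pcnt had 279, 349.7, 323 and 319 CPM in MII Null and 316, 321 and 313 CPM in MII WT. It had 427, 374 and 403 CPM in GV Null and 408, 413 and 412 CPM in GV WT. Every egg library was below every GV library. The log2 change was -0.34 (SE 0.07, adjusted p = 0.000883) in Null and -0.38 (SE 0.08, adjusted p = 0.000717) in WT by edgeR's test, and -0.49 in Null and -0.51 in WT on the scale of genes of at least 5 CPM. Cep192, which brings the kinases Aurora A and PLK1 to the pericentriolar material, had 123, 163, 157 and 159.8 CPM in MII Null and 162, 159 and 139 CPM in MII WT, against 155, 132 and 144 CPM in GV Null and 145, 148 and 154 CPM in GV WT. Its libraries overlapped between all groups, and its log2 change was 0.07 in Null (95% interval -0.12 to 0.26) and 0.04 in WT (-0.17 to 0.25). Cdk5rap2, whose protein activates γ-tubulin rings on the scaffold, had 86.9 to 120.0 CPM in MII Null, 106 to 112 CPM in MII WT, 87.6 to 110.3 CPM in GV Null and 100.5 to 110.2 CPM in GV WT. Its groups also overlapped, at a log2 change of 0.09 in Null (-0.12 to 0.30) and 0.04 in WT (-0.18 to 0.26). On the second scale the values of both genes turned below 0 (Cep192 -0.08 in Null and -0.10 in WT, Cdk5rap2 -0.06 in Null and -0.10 in WT), again without passing.

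Both γ-tubulin genes were higher in eggs. Tubg1 had 30.4, 28.7, 26.9 and 22.9 CPM in MII Null and 27.4, 29.1 and 29.9 CPM in MII WT. It had 20.2, 22.8 and 23.7 CPM in GV Null and 20.2, 20.7 and 19.9 CPM in GV WT. The WT groups did not overlap, while the lowest egg library in Null, replicate 4, lay inside the GV Null range. The log2 change of Tubg1 was 0.29 (SE 0.10, adjusted p = 0.0229) in Null and 0.51 (SE 0.11, adjusted p = 0.000835) in WT, and 0.13 in Null and 0.37 in WT on the second scale, where the Null call was lost. The Null call was also lost without GV Null replicate 1 or without MII Null replicate 1, 2 or 3 (adjusted p = 0.0575 to 0.113). It was lost too with only the 2 Null groups in edgeR's fit (adjusted p = 0.0739). Tubg2 had 165, 145, 146 and 121 CPM in MII Null and 134, 154 and 131 CPM in MII WT. It had 96.8, 104 and 118 CPM in GV Null and 95.1, 100.2 and 109 CPM in GV WT. Every egg library was above every GV library, and the log2 change was 0.44 (SE 0.10, adjusted p = 0.00111) in Null and 0.46 (SE 0.10, adjusted p = 0.0015) in WT, with 0.28 in Null and 0.33 in WT on the second scale.

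Tubg1 and Tubg2 are close copies, and how reads that fit both were counted is not given in the sources used here, so the split between them is uncertain. Tubg1 took 15.9 ± 0.471% of the counts of the pair in MII Null, 17.1 ± 1.36% in MII WT, 17.3 ± 0.607% in GV Null and 16.7 ± 1.09% in GV WT (SD), a share not corrected for transcript length. Exact 2-sided permutation tests over libraries gave p = 0.143 for MII Null against MII WT, 0.5 for GV Null against GV WT, 0.0571 for MII Null against GV Null and 0.8 for MII WT against GV WT. The Benjamini-Hochberg values over the 4 were 0.286, 0.667, 0.229 and 0.8. The smallest p was 0.0286 with 4 against 3 libraries and 0.1 with 3 against 3, and the smallest Benjamini-Hochberg values the 4 tests allow together are 0.0571 and 0.1, so at the most extreme outcome of all 4 none would pass.

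Nedd1, which tethers γ-tubulin rings to the spindle and to augmin, had 129.8, 139, 151 and 151 CPM in MII Null and 155, 154 and 145 CPM in MII WT. It had 133, 101 and 111 CPM in GV Null and 115, 114 and 118 CPM in GV WT. The WT groups did not overlap, and in Null 1 GV library, replicate 1, lay above the lowest egg library. The log2 change was 0.31 (SE 0.08, adjusted p = 0.00535) in Null and 0.38 (SE 0.09, adjusted p = 0.00204) in WT, with 0.16 in Null, where it no longer passed, and 0.25 in WT on the second scale. Without GV Null replicates 2 and 3 the Null value was 0.11 (adjusted p = 0.479).

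Haus6 belongs to augmin, the complex of 8 subunits that starts new microtubules on the side of existing ones. Its protein binds that of Nedd1. It had 98.2, 98.9, 99.6 and 108 CPM in MII Null and 100.3, 106 and 101 CPM in MII WT. It had 85.8, 74.5 and 81.6 CPM in GV Null and 84.1, 91.1 and 88.3 CPM in GV WT. Every egg library was above every GV library. The log2 change was 0.33 (SE 0.07, adjusted p = 0.000856) in Null and 0.22 (SE 0.07, adjusted p = 0.0211) in WT, and 0.17 in Null and 0.09 in WT on the second scale. In WT the call was lost on that scale (adjusted p = 0.31), without a filter on low counts (adjusted p = 0.0931), and without GV WT replicate 1 or 3 or MII WT replicate 2 (adjusted p = 0.0541 to 0.0968). In Null it was lost without GV Null replicates 2 and 3 (adjusted p = 0.0768).

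Tpx2, the Ran-controlled nucleation factor that also activates Aurora A, had 236, 262, 279 and 236 CPM in MII Null and 269, 262 and 261 CPM in MII WT. It had 230.0, 202 and 212 CPM in GV Null and 241, 236 and 221 CPM in GV WT. Egg libraries were above GV libraries within each genotype. The log2 change was 0.24 (SE 0.07, adjusted p = 0.0113) in Null and 0.18 (SE 0.08, adjusted p = 0.0669) in WT, and 0.08 in Null and 0.05 in WT on the second scale, where neither passed. The Null call was also lost without GV Null replicate 2 or without MII Null replicate 2 or 3 (adjusted p = 0.0502 to 0.0705), and without both GV Null replicates 2 and 3 (0.14, adjusted p = 0.34).

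Tacc3 and Ckap5 work as a pair, TACC3 holding the microtubule polymerase encoded by Ckap5 on the spindle. In mouse oocytes TACC3 also organises a liquid-like spindle domain. Tacc3 had 329, 337, 374 and 349 CPM in MII Null and 331, 334 and 347 CPM in MII WT. It had 788, 657 and 675 CPM in GV Null and 751, 754 and 775 CPM in GV WT. Every egg library was far below every GV library. The log2 change was -1.03 (SE 0.07, fold 0.491, adjusted p = 1.79e-09) in Null and -1.17 (SE 0.08, fold 0.444, adjusted p = 1.57e-09) in WT, and -1.18 in Null and -1.31 in WT on the second scale. Ckap5 had 295, 326, 327 and 322 CPM in MII Null and 318, 335 and 327 CPM in MII WT, against 303, 257 and 267 CPM in GV Null and 287, 300.3 and 286 CPM in GV WT. Its WT groups did not overlap, while GV Null replicate 1 lay above MII Null replicate 1. The log2 change of Ckap5 was 0.20 (SE 0.07, adjusted p = 0.0193) in Null and 0.17 (SE 0.07, adjusted p = 0.0734) in WT, and 0.05 in Null and 0.03 in WT on the second scale, without a call. The Null call was lost without GV Null replicate 2 or 3 or MII Null replicate 2 or 3 (adjusted p = 0.0724 to 0.109) and with both GV Null libraries left out (0.07, adjusted p = 0.604). With only the 2 WT groups in edgeR's fit, Tpx2 (adjusted p = 0.0317) and Ckap5 (adjusted p = 0.044) passed in WT. With only the 2 Null groups, the Null calls of Tpx2 (adjusted p = 0.0552) and Ckap5 (adjusted p = 0.0827) were lost.

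**Figure D2:**
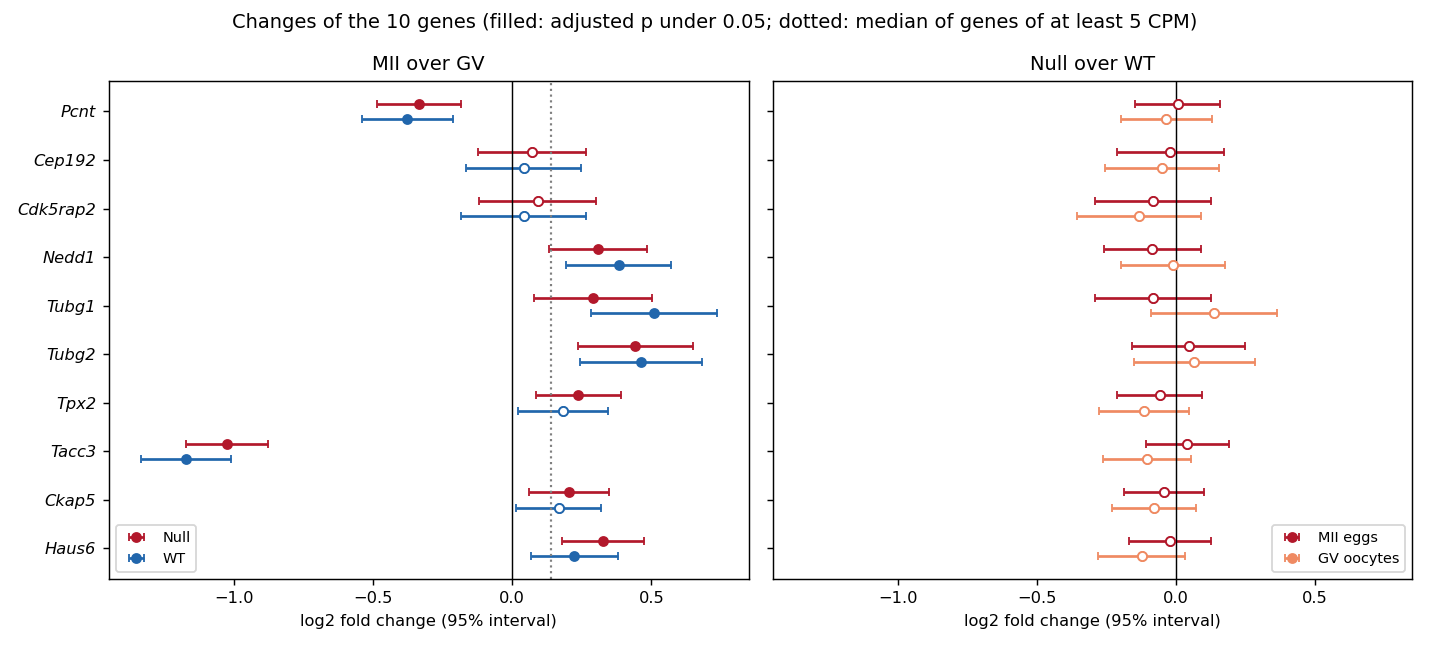
Log2 fold changes of the 10 pole genes with 95% intervals, in 4 comparisons (MII Null over MII WT, GV Null over GV WT, and eggs over GV oocytes in Null and in WT). Filled points have an adjusted p under 0.05 in edgeR's test, and the dotted line marks the median of genes of at least 5 CPM. No point is filled in the genotype comparisons, and Tacc3 lies at -1.03 in Null and -1.17 in WT for maturation.

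Genes without overlap between egg and GV libraries were counted with 4 against 3 libraries in Null and 3 against 3 in WT. An added library makes overlap more likely, so the shares in Null and WT are not compared with each other. In Null, 3 of the 10 genes were higher in every egg library than in every GV library and 2 were lower, against 46.4% of all genes without overlap (21.2% higher and 25.2% lower). In WT these numbers were 6 and 2, against 58.3% of all genes (28.2% higher and 30.1% lower). MII Null replicate 1 was the lowest of its group for 8 genes, all but Tubg1 and Tubg2, and MII Null replicate 4 was the lowest for those 2. The 12 cumulus markers picked for their low level in MII WT summed to 8.20 CPM in MII Null replicate 4. Their sums were 0.918, 0.525 and 0.890 CPM in MII Null replicates 1, 2 and 3. Low sums in MII WT follow from this choice of markers. GV WT oocytes had 7.28 to 18.4 CPM of the same 12, a range that includes the value of MII Null replicate 4. All 20 markers summed to 129.8 CPM in MII Null replicate 4, while replicates 1, 2 and 3 had 101, 122 and 118 CPM. Without MII Null replicate 4, 8 pole genes passed for maturation in Null (6 higher and 2 lower), where 10029 of all genes passed (4288 higher and 5741 lower). Between MII Null and MII WT 0 pole genes passed, where 12 of all genes did.

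The other 7 subunits of augmin were then set beside Haus6. With maturation 5 of the 7 fell in both genotypes, while Haus6 was higher in eggs. Of these 7 genes 6 passed in Null (1 higher and 5 lower, median log2 change -0.92), against 49% of all genes tested (22.1% higher and 26.9% lower, median -0.05). In WT all 7 passed (2 higher and 5 lower, median -1.19), against 42.7% of all genes (19.9% higher and 22.8% lower, median 0.01). All 7 are named here after their values were seen, so the counts are a description. Haus3 fell to 126 ± 5.36 CPM in MII Null and 139 ± 9.63 CPM in MII WT, against 239 ± 23.7 CPM in GV Null and 263 ± 4.29 CPM in GV WT, a log2 change of -0.92 in each genotype (adjusted p = 1.16e-08 in Null and 4.11e-08 in WT). Haus8, a subunit that binds microtubules, fell to 8.38 ± 0.862 CPM in MII Null and 7.77 ± 1.64 CPM in MII WT, against 26.3 ± 2.47 CPM in GV Null and 26.7 ± 1.79 CPM in GV WT (log2 change -1.65 in Null and -1.78 in WT). Haus1 changed by -1.85 in Null and -1.78 in WT, Haus7 by -1.94 in Null and -1.54 in WT, and Haus2 by -0.75 in Null and -1.19 in WT. Haus4 was higher in eggs, at 0.28 in Null (adjusted p = 0.0297) and 0.31 in WT (adjusted p = 0.0281), and Haus5 passed in WT alone, at 0.46 (adjusted p = 0.0452, against 0.28 and adjusted p = 0.173 in Null). On the scale of genes of at least 5 CPM, 6 of the 7 were tested, 4 were lower and 0 higher in each genotype. Haus3 and Haus6 had opposite signs on both scales, with Haus3 at -1.08 in Null and -1.06 in WT on the second and Haus6 at 0.17 in Null and 0.09 in WT.

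Haus7 had the smallest p of the augmin genes between genotypes. It had 1.90 to 2.89 CPM in MII Null and 3.10 to 5.05 CPM in MII WT, so that the groups did not overlap. It had 8.89, 9.96 and 8.69 CPM in GV Null and 14.3, 14.4 and 9.50 CPM in GV WT, where GV Null replicate 2 lay above GV WT replicate 3. The log2 difference in eggs was -0.88 (SE 0.20, unadjusted p = 0.000433) and did not pass over all genes (adjusted p = 0.291 by edgeR's test). It passed without a filter on low counts (adjusted p = 0.000884), a setting that called 290 of all genes in eggs. It also passed in DESeq2 (adjusted p = 0.0442), which called 42, against 11 in the main fit. In GV oocytes it was -0.47 (SE 0.20, adjusted p = 0.714).

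**Figure D3:**
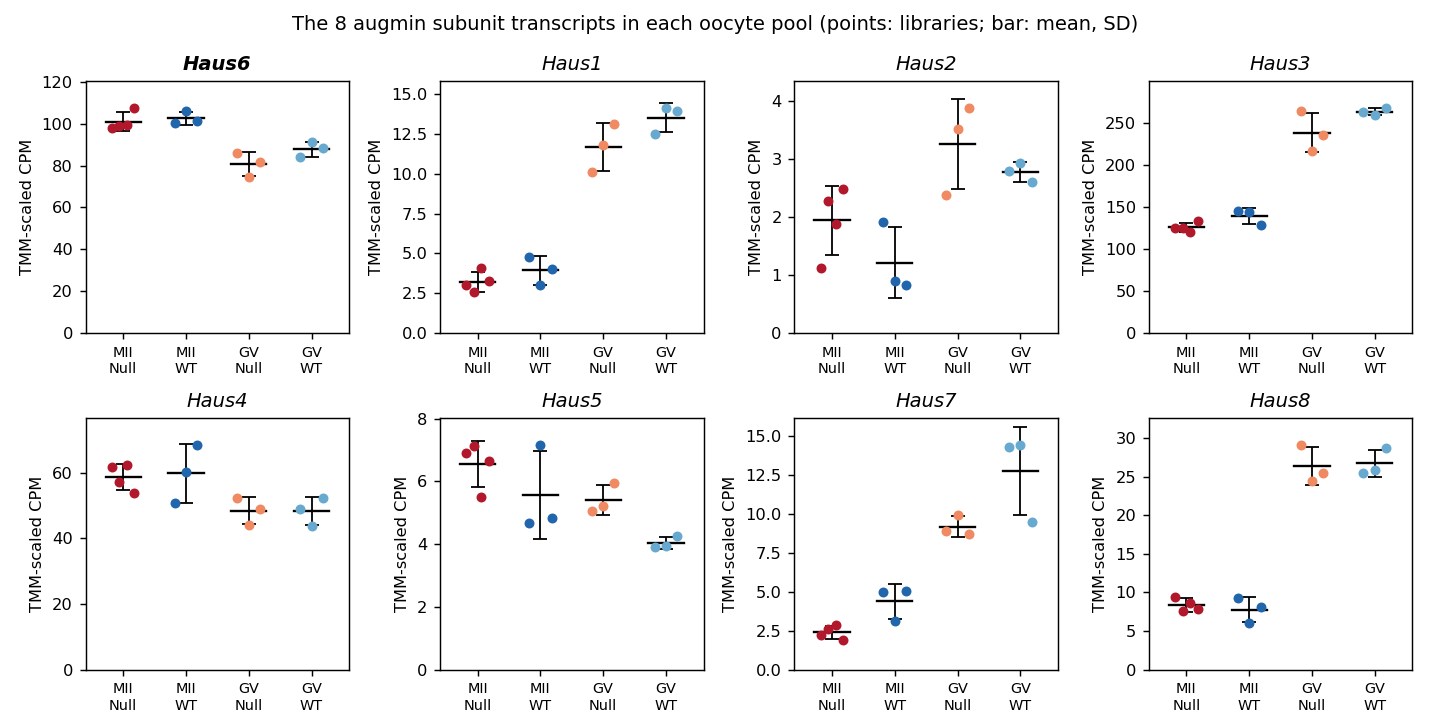
Levels of the 8 augmin subunit mRNAs in every library. Each panel is 1 gene, the vertical axis is TMM-scaled CPM, points are libraries and bars are group means with their SD, in the order MII Null, MII WT, GV Null and GV WT. Haus3 stands at 126 and 139 CPM in MII Null and MII WT and at 239 and 263 CPM in GV Null and GV WT, while Haus6 is slightly higher in eggs.

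Other genes of the same structures were taken from lists and are described by counts of genes passing edgeR's test, beside 49% of all genes in Null (22.1% higher and 26.9% lower) and 42.7% in WT (19.9% higher and 22.8% lower). Of 8 genes of the γ-tubulin ring complex, 5 passed in Null (3 higher and 2 lower) and 2 in WT (1 and 1). Mzt1, a small protein of the ring, was at 33.9 ± 1.45 CPM in MII Null and 33.2 ± 1.70 CPM in MII WT, against 23.4 ± 0.588 CPM in GV Null and 24.5 ± 0.608 CPM in GV WT (log2 change 0.54 in Null and 0.44 in WT). Its relative Mzt2 fell by 2.27 in Null and by 2.02 in WT on the log2 scale, to 1.47 ± 0.610 CPM in MII Null and 1.99 ± 0.288 CPM in MII WT. In the main fit the ring genes thus had both directions, as the γ-tubulin genes and Mzt2 were at opposite signs. On the scale of genes of at least 5 CPM, 5 of the 8 were tested. Of these 1 was higher and 1 lower in Null, and 1 higher and 0 lower in WT.

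Of 16 further pericentriolar material and centrosome scaffold genes, 8 passed in Null (7 higher and 1 lower) and 4 in WT (4 higher and 0 lower), with medians of 0.22 in Null and 0.10 in WT. The direction of those 4 was opposite to that of Pcnt. Pcm1, the scaffold of centriolar satellites, was at 755 ± 97.2 CPM in MII Null and 745 ± 50.9 CPM in MII WT, against 526 ± 48.7 CPM in GV Null and 546 ± 32.7 CPM in GV WT. Nin, ninein, which anchors microtubules, changed by 0.54 in Null and 0.39 in WT. Of 12 centriole assembly genes, 8 passed in Null (7 higher and 1 lower) and 7 in WT (6 higher and 1 lower). Plk4, the kinase that starts centriole duplication and that nucleates microtubules in mouse oocytes without centrioles, was at 408 ± 31.5 CPM in MII Null and 411 ± 18.5 CPM in MII WT, against 257 ± 33.5 CPM in GV Null and 271 ± 4.01 CPM in GV WT (log2 change 0.67 in Null and 0.60 in WT). Cetn2, a centrin, had the lowest change of that list, -2.77 in Null and -3.10 in WT.

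Of 7 spindle pole kinases and their activators, 4 passed in Null (2 higher and 2 lower) and 2 in WT (1 and 1), and Nek7 was higher in both genotypes (0.35 in Null and 0.49 in WT). Without GV Null replicates 2 and 3 the Null value of Nek7 was 0.24 (adjusted p = 0.159). Of 13 genes of the Ran pathway around Tpx2, 10 passed in Null (5 higher and 5 lower) and 8 in WT (4 and 4). Ran itself fell, at 9.87 to 14.6 CPM in MII Null and 8.95 to 11.6 CPM in MII WT, against 24.5 to 35.7 CPM in GV Null and 30.2 to 35.3 CPM in GV WT (log2 change -1.44 in Null and -1.66 in WT). Nusap1, a Ran-regulated microtubule bundler, was higher in eggs by 0.63 in Null and 0.60 in WT.

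Of 8 genes around Tacc3 and clathrin, 5 passed in Null (2 higher and 3 lower) and 4 in WT (1 higher and 3 lower). Clta, a clathrin light chain, changed by -1.90 in Null and -2.00 in WT, and Cltb by -0.48 in Null and -0.60 in WT. Myo10, an unconventional myosin that binds microtubules, was higher in eggs by 0.40 in Null and 0.34 in WT. Of 20 spindle motors and microtubule-associated proteins, 13 passed in Null (8 higher and 5 lower) and 14 in WT (9 higher and 5 lower). Mapre2, which encodes a plus-end binding protein, was higher by 0.74 in Null and 0.67 in WT. Stmn1, the tubulin-sequestering protein stathmin, changed by -2.01 in Null and -2.17 in WT.

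The tubulins, the building blocks of the microtubules themselves, were mostly lower in eggs. Of 17 listed genes 15 were tested, 13 of which passed in Null (3 higher and 10 lower, median -0.98) and 12 in WT (2 higher and 10 lower, median -0.93). Of all genes tested 26.9% were lower in Null and 22.8% in WT, with medians of -0.05 in Null and 0.01 in WT. Tubb2a was at 128 ± 4.58 CPM in MII Null and 123 ± 14.5 CPM in MII WT, against 345 ± 19.1 CPM in GV Null and 364 ± 15.5 CPM in GV WT, and Tuba4a changed by -0.98 in Null and -0.93 in WT. Several tubulin genes are near copies, so their counts may be shared between them. On the scale of genes of at least 5 CPM, 11 of 14 tested tubulins were lower and 2 higher in each genotype. The γ-tubulin genes and most α- and β-tubulin genes therefore had opposite signs, a statement of direction with no test of the difference. Leaving out GV Null replicates 2 and 3 gave median Null log2 changes of 0.18 for the γ-tubulin ring, -1.06 for augmin and 0.07 for the scaffold. The medians were 0.16 for centriole assembly, -0.23 for the kinases, -0.07 for the Ran pathway and -0.06 around Tacc3. For the motors and the tubulins they were -0.008 and -0.77. The scale of genes of at least 5 CPM moved the split of higher and lower calls most in the Ran pathway (3 and 5 in Null, 2 and 6 in WT) and in the motors and microtubule-associated proteins (7 and 8 in Null, 5 and 8 in WT). On that scale the scaffold list had 6 and 1 in Null and 3 and 1 in WT, and the centriole list 5 and 2 in Null and 5 and 1 in WT. Between genotypes 0 of the 106 tested genes of these 9 lists passed edgeR's test at either stage. An unadjusted p under 0.05 was found for 5 of them in eggs, against 6.35% of all genes, and for 8 in GV oocytes, against 6.66% of all genes. Tube1, ε-tubulin, had the smallest p of its list in GV oocytes (20.8 CPM in GV Null and 25.4 CPM in GV WT, unadjusted p = 0.00635, adjusted p = 0.651 by edgeR's test), and Ranbp1 in eggs (7.24 ± 0.405 CPM in MII Null and 5.46 ± 0.511 CPM in MII WT, adjusted p = 0.585).

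**Figure D4:**
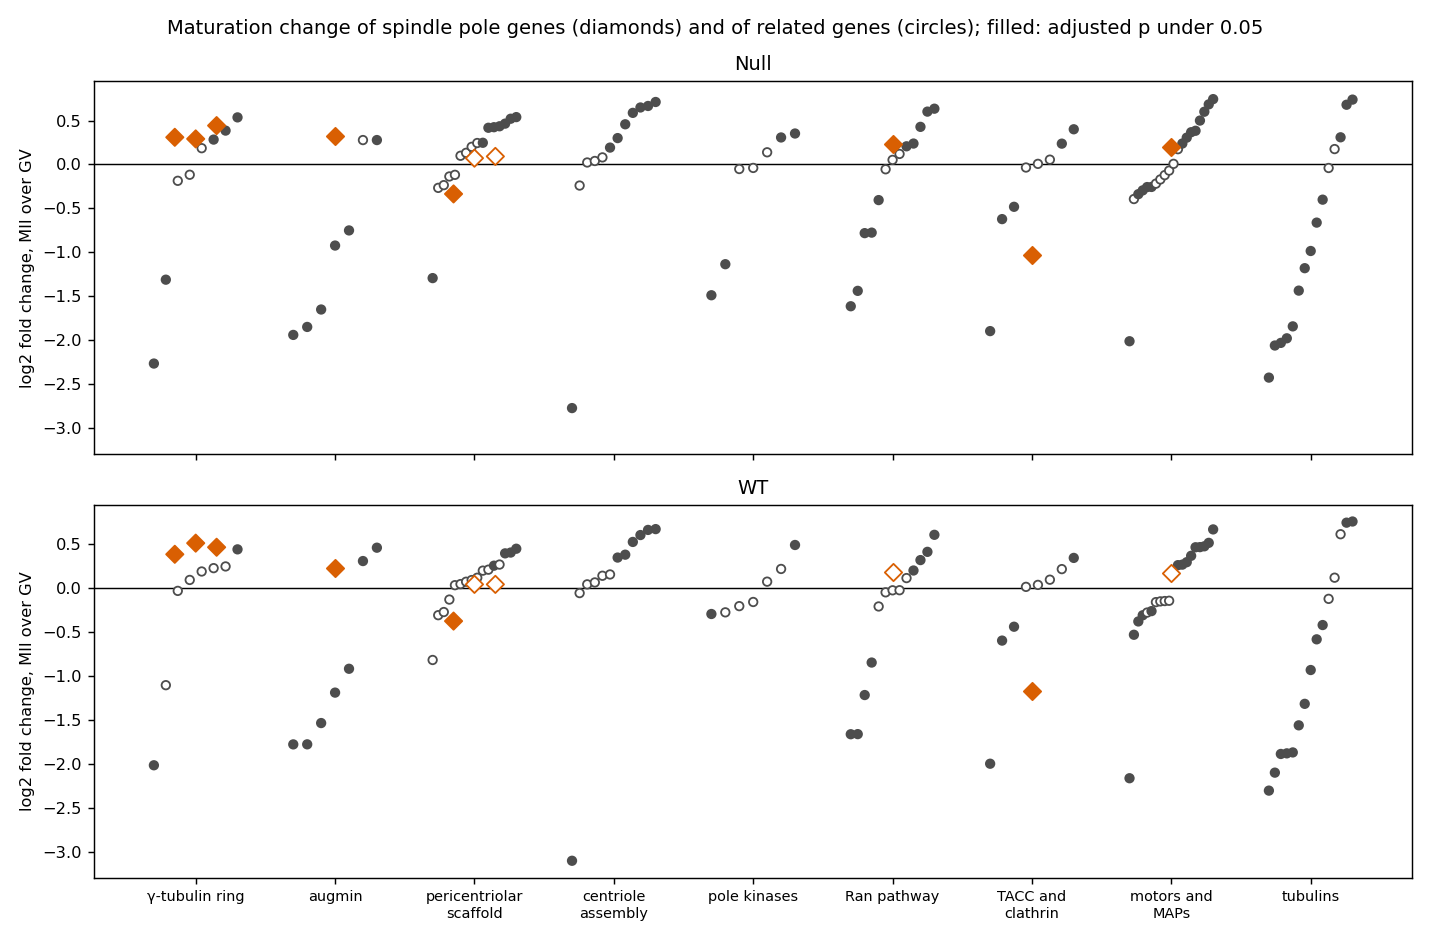
Log2 change of eggs over GV oocytes for the 10 pole genes (diamonds) and the related genes (circles) by list, in Null and in WT. Filled points have an adjusted p under 0.05 in edgeR's test. Tubulins and augmin genes lie mostly below 0, with list medians of -0.98 and -0.92 in Null and of -0.93 and -1.19 in WT.

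The genes most like the 3 pole genes with the largest maturation change in WT were looked up by Pearson's r of log2 CPM over the 13 libraries, among 5558 genes of at least 20 CPM. Since the libraries fall into eggs and GV oocytes, these values hold the difference between the stages and are a description. Tacc3 was nearest to Fxr2 (r = 0.995), which encodes an RNA-binding protein, Kdm5d (0.994) and Irf1 (0.994). Kdm5d is annotated on the Y chromosome, so its counts in oocytes cannot be taken as its own. Tubg1 was nearest to Txndc2 (0.977), Midn (0.972) and Eif2d (0.967), and Tubg2 to Banp (0.983), Tpgs2 (0.971) and Rnf122 (0.969). Fxr2 was at 23.2 ± 0.592 CPM in MII Null and 20.4 ± 1.14 CPM in MII WT, against 62.7 ± 4.06 CPM in GV Null and 67.6 ± 1.68 CPM in GV WT.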

How the data were processed

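The measurements are RNA sequencing counts of 13 oocyte pools, made from total RNA with a 0.2 pg Renilla spike-in and the Ovation RNA-Seq V2 kit, and read as 65 bp single ends, per the labels' protocols. The authors deposited raw counts per gene. The submitters' processing notes name STAR 2.5.3a and bedtools 2.26.0, and how reads were assigned to genes is not given in the sources used here. Every line named a gene (0 did not), and 54079 IDs had a symbol. Counts were filtered (filterByExpr), TMM-scaled and fitted with edgeR 4.0.16 (quasi-likelihood, robust) in R 4.3.3, in 1 model of 4 groups with 9 residual degrees of freedom, and p-values were Benjamini-Hochberg adjusted over 20143 genes. DESeq2 1.42.0 served as an alternative. The labels do not say that pools came from separate females, so p-values measure the spread between these libraries, which may be technical. Pairs of replicates differed beyond sampling noise (chi-square per degree of freedom 5.03 to 34.3), so none was merged. The named genes were all 10 members and up to 3 genes per list and comparison with the smallest p among those of at least 1 CPM. All 7 other augmin genes were named after their values were seen. Members and lists were chosen with earlier results of these data known. Transcript lengths were not available, so levels were not compared between genes. Intervals cover 95%. The spike-in was not used here.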

Additional observations from a re-analysis of the deposited data

Results flagged for a closer look

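Of 11 group values with 4 libraries that were checked for a library apart (the 10 pole genes and the Tubg1 share in MII Null), 2 had one, and chance gives about 1 in 20. Cep192 stood at 123 CPM in MII Null replicate 1, against 157 to 163 CPM in the other 3 libraries of that group. Haus6 stood at 108 CPM in MII Null replicate 4, against 98.2 to 99.6 CPM in the others.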

How the results depend on the processing

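In the genotype comparisons 0 of the 10 pole genes passed under any setting run, and the fall of Tacc3 and Pcnt and the rise of Tubg2 with maturation kept their direction and passed under all of them in both genotypes. Counts over all genes moved more. RLE size factors in place of TMM left 0 genes called for the difference of genotype effects, against 1. With no filter on low counts 290 genes passed between genotypes in eggs, 644 in GV oocytes and 157 for the difference. With the filter of 5 CPM 7 passed in eggs, and 5843 for maturation in Null and 5355 in WT, of fewer genes tested, with 4 pole genes in Null. DESeq2 gave 42 in eggs, 24 in GV oocytes and 3 for the difference. Without GV Null replicates 2 and 3 the counts were 1 in GV oocytes, 0 for the difference and 5672 for maturation in Null, with 4 pole genes, and with only the 2 groups compared 5 pole genes passed in Null. With only the 2 WT groups fitted 8 pole genes passed in WT (6 higher and 2 lower), against 6 in the main fit. Leaving out 1 library at a time gave 4 to 12 genes in eggs and 6 to 139 in GV oocytes (139 without GV Null replicate 1). It gave 0 to 1 for the difference. For maturation it gave 5 to 8 pole genes in Null and 5 to 6 in WT. The causes were not tested.

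The labels do not tie equal replicate numbers to the same animals. Between libraries of equal number, the correlation of their deviations from the group means ran from -0.0971 to 0.225. The largest values were those of replicate 3 between Null and WT, 0.161 in GV oocytes and 0.225 in eggs. No reference for unpaired libraries was run, so these values cannot decide whether the numbers pair the libraries. With the number as a block in the fit (the replicate block) 0 genes passed for the difference of genotype effects, and the Null maturation call of Ckap5 was lost (adjusted p = 0.0537). Under the block the difference turned to Cep192 -0.00117 and Tubg2 0.057.

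All other changes of sign were in values that passed under no setting. With the filter of 5 CPM these were Cep192 -0.083 and Cdk5rap2 -0.063 for maturation in Null, Cep192 -0.096 and Cdk5rap2 -0.096 in WT, and Nedd1 0.00179 between genotypes in GV oocytes. With only the 2 WT groups fitted they were Cep192 -0.00100 and Cdk5rap2 -0.00172. The difference of genotype effects for Tubg2 was 0.014 with RLE, 0.00167 without a filter and 0.017 in DESeq2. Without GV Null replicates 2 and 3 the GV genotype values were Pcnt 0.053, Cep192 0.055, Cdk5rap2 0.045, Nedd1 0.19, Tubg1 -0.00339, Tubg2 -0.068, Tacc3 0.051, Ckap5 0.054 and Nek6 -0.18, the differences of genotype effects Pcnt -0.045, Cep192 -0.074, Cdk5rap2 -0.13, Tubg2 0.12, Tpx2 -0.040, Tacc3 -0.00859 and Ckap5 -0.095, and the Null maturation values Cep192 -0.034 and Cdk5rap2 -0.087. Leaving out 1 library at a time gave ranges across 0 for Cep192 -0.086 to 0.072, Tubg2 -0.019 to 0.14, Pcnt -0.030 to 0.070, Haus6 -0.036 to 0.00397 and Tubg1 -0.13 to 0.00932 in eggs, Pcnt -0.087 to 0.012, Cep192 -0.11 to 0.00706, Nedd1 -0.13 to 0.073 and Tubg2 -0.015 to 0.12 in GV oocytes, Nedd1 -0.16 to 0.047, Pcnt -0.00501 to 0.12, Cep192 -0.032 to 0.13, Cdk5rap2 -0.018 to 0.16, Ckap5 -0.010 to 0.11 and Tubg2 -0.077 to 0.082 for the difference, Cdk5rap2 -0.00881 to 0.20 for maturation in Null, and Cdk5rap2 -0.000512 to 0.064 and Cep192 -0.000626 to 0.11 in WT. The Tubg1 share of MII WT minus GV WT ran from -0.252 to 1.10 percentage points, below 0 without GV WT replicate 3 or MII WT replicate 3.

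The pole genes had 736 counts or more in every library, and Haus7 61 to 159 counts in eggs.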
